A study of Mus musculus with 12 samples.

Results

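Isl1, Tbx1, Six2 and Eya1 encode transcription regulators of the second heart field, the progenitor population that adds cells to the arterial and venous poles of the looping heart tube. Acetylation of lysine 27 of histone H3 (H3K27ac), a mark of active promoters and enhancers, was described around the 4 genes from each gene body and 50000 bp on either side of it (build mm10). These windows held 40 of the 94481 H3K27ac regions of the whole series and 0 of its 2605 GLI1 sites. The GLI1 list was limited to replicated sites with a Gli motif. The cells were cardiac progenitors that had been differentiated from mouse embryonic stem cells (strain A2Lox.cre, line GLI1-FTA) and harvested on day 6. Dox cells had received doxycycline at 500 ng/ml for 24 hours from day 5 to express tagged GLI1, which carries Hedgehog signals to the genome, and control cells of the same line were untreated. The inducible GLI1 construct was carried by dox and control cells alike, and the labels name a single cell line, so results stand for that line. H3K27ac was measured in 2 dox and 2 control samples and GLI1 in 2 dox samples, and each deposited list combines the replicates of its group. With a single list per condition there was no replicate spread, no difference between conditions could be tested, and no p-value is given.

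Isl1 is a LIM homeodomain factor and the classical marker of second heart field progenitors. Tbx1 is a T-box factor of pharyngeal mesoderm that keeps these progenitors dividing. Eya1 is a phosphatase and coactivator without DNA binding of its own that works through homeodomain partners of the sine oculis family, to which Six2 belongs. In the mouse embryo, Hedgehog ligand from the pharyngeal endoderm is received by second heart field cells, and GLI factors carry the signal to the genome.

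The bases before the starts of transcription are shown because the presence of H3K27ac over them differed among the genes. The sequences are RefSeq's (GRCm38.p6, minus strand, 250 bases ending just before the start), and the capitals mark matches to the motifs named after them.
Isl1, chr13:116309689-116309938: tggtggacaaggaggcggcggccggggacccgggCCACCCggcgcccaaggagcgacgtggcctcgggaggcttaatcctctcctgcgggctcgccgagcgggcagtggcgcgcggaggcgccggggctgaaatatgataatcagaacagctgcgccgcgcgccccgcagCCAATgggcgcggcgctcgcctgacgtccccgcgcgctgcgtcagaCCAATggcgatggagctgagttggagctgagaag
Six2, chr17:85688255-85688504: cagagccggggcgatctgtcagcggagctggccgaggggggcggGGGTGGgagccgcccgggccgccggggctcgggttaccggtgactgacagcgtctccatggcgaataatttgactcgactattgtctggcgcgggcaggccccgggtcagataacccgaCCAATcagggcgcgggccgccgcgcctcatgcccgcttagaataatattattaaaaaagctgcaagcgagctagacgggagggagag
Tbx1, inner start, chr16:18588900-18589149: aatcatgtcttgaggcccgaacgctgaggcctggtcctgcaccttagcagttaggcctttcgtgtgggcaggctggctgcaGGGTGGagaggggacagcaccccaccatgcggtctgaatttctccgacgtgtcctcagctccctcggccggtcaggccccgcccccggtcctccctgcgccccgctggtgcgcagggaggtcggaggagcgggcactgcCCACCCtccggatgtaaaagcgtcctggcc
Tbx1, outer start, chr16:18590672-18590921: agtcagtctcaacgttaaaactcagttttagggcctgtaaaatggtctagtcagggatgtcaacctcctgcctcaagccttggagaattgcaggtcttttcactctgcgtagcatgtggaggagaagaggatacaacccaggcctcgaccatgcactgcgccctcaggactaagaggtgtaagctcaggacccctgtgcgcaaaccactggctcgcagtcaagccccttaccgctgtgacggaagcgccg
The letters GACCACCCA, the consensus of GLI factors, were in none of the 4 sequences on either strand and in 0.225% of 32851 promoters of this length. The shorter core CCACCC, which lies within that consensus, matched once at Isl1, once at Six2 and at 2 places at the inner Tbx1 start, and 28.1% of all promoters held it. The letters CCAAT matched at 2 places at Isl1 and once at Six2 (33.8% of all promoters), and TATAAA matched in none (12.4%). All 4 sequences were richer in G and C than the median promoter, with 71.2% at Isl1, 67.2% at the inner and 54.4% at the outer Tbx1 start and 64.8% at Six2, against 52.4%. CG pairs numbered 33 at Isl1, 26 at Six2, 17 at the inner and 10 at the outer Tbx1 start, against a median of 6.

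The 250 bases before the Isl1 start lay inside a peak over their whole length in dox and in control cells. Those of Six2 lay wholly inside a dox peak, whereas 0 of the 250 bases were in a control peak and the nearest control peak was 127 bp from the start. Control peaks flanked these bases on both sides, with 2 of them within 1000 bp of the start. At Tbx1 no peak of either list came within 1000 bp of either start. The nearest dox peak was 2128 bp from the inner start and 3900 bp from the outer start, and the nearest control peak was 33065 bp and 34837 bp away.

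Fold enrichment is the authors' value throughout. It is the ratio of reads at a summit over the local background in the same list, with a small constant added to both. Reads at a summit were recovered from fold enrichment and −log10 p, and carry 95% intervals for counting error only. In dox cells the highest fold enrichment in a window was 25.0 at Eya1, from 126 reads (105 to 150), and 21.0 at Isl1, from 96 reads (77.8 to 117). It was 10.4 at Six2, from 53 reads (39.7 to 69.3), and 4.32 at Tbx1, from 19 reads (11.4 to 29.7). Eya1 and Isl1 did not differ beyond their counting intervals in dox cells, and the other neighbours in this order did. In control cells the order was Eya1 with 27.8 (106 reads, 86.8 to 128), Isl1 with 20.2 (96 reads, 77.8 to 117), Tbx1 with 6.27 (23 reads, 14.6 to 34.5) and Six2 with 4.93 (20 reads, 12.2 to 30.9). There Eya1 overlapped Isl1, and Tbx1 overlapped Six2. Among 19793 protein-coding genes, 74.3% had a lower highest dox value in their window than Eya1, 65.1% a lower one than Isl1, 38.7% than Six2 and 22.8% than Tbx1.

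Of the 40 regions, 18 were in the dox list alone (dox-only), 11 in both lists (shared) and 11 in the control list alone (control-only). These are 45.0%, 27.5% and 27.5%, and over all regions of the series the shares were 35.5%, 37.5% and 27.1%. The genes divided the regions unequally. All 7 regions of 1 list alone at Isl1 were control-only, while 8 of the 10 at Tbx1, 8 of the 10 at Eya1 and both at Six2 were dox-only. Over the series, regions of 1 list alone were 33496 dox-only and 25596 control-only. Most were weak: the dox-only regions had a median fold enrichment of 3.43 (2.24 to 8.46) and the control-only regions one of 3.92 (2.54 to 6.27), near the medians of 3.51 and 3.66 over the series. A summit on the uniform background needed 11 reads to be listed in dox and 9 in control. The dox pool was 1.28 times as deep as the control pool by the recovered backgrounds.

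**Figure D1:**
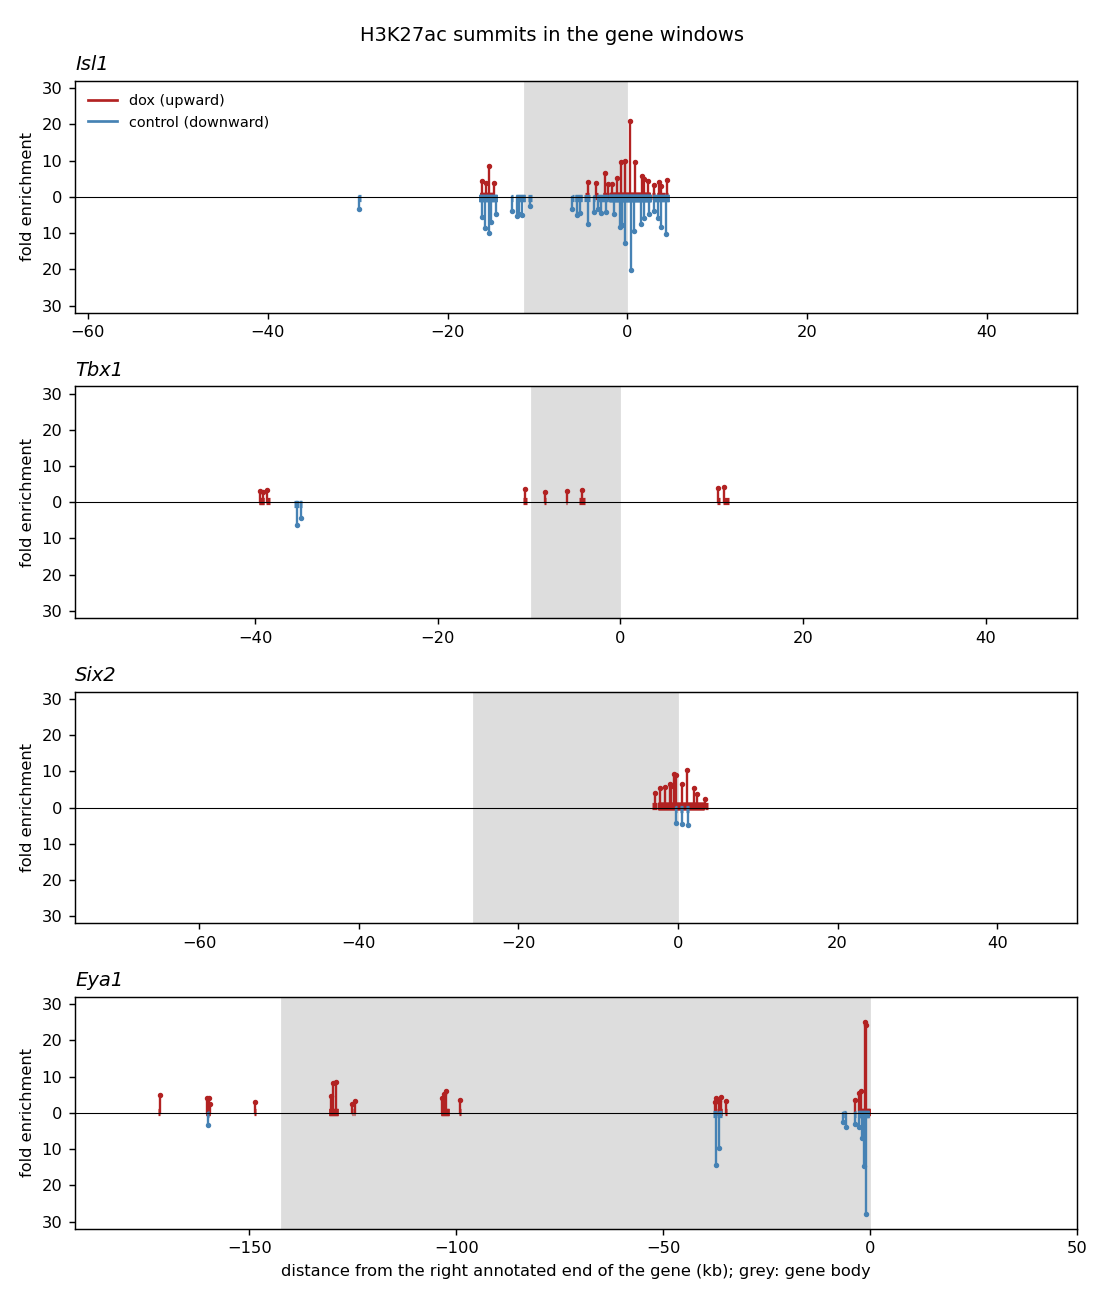
H3K27ac summits in the windows of Isl1, Tbx1, Six2 and Eya1, by distance from the right annotated end of the gene in kb (the start of transcription for Isl1 and Six2, the outer start for Tbx1). Lines upward are dox and lines downward control fold enrichments, thick bars are peak intervals and grey is the gene body. Dox and control summits mirror each other at the right ends of Isl1 and Eya1. Control has more summits than dox in the Isl1 window (32 against 21). In the left part of the Eya1 gene body dox stands alone.

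Log2 ratios below compare the highest fold enrichment in dox with that in control. The median over the 35389 shared regions of the series, −0.13, was subtracted from each, and a region with a ratio of at least 1 in size is called higher or lower. Of the 11 shared regions, 1 was higher (9.09%) and 2 were lower (18.2%), where 6.78% and 8.31% of all shared regions were. The ratio of reads, scaled by depth, is given with its counting interval; its median over all shared regions was −0.27. Where both lists were held to a −log10 q of 10 or more, no region was higher or lower: the Six2 region was then in the dox list alone and the Eya1 pair in the control list alone, and Isl1 had 1 dox-only beside 2 control-only regions. ChIP signal comes from a population, so fewer cells with a mark and less mark per cell cannot be told apart.

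Six2 (chromosome 17, 85662736 to 85688254) carried the higher region. In dox cells a single interval of 5740 bp (85685747 to 85691486) with 10 summits covered the start and its surroundings, with fold enrichments of 3.80 to 10.4. Control cells had 3 narrow peaks of 208, 289 and 307 bp within it, with 4.33, 4.46 and 4.93. The region's log2 ratio was 1.21, and the ratio of reads (53 in dox, 20 in control) was 1.05 (0.28 to 1.87). Each of the 3 control summits had a dox summit at most 46 bp away, and all 3 were stronger in dox cells: 8.86 against 4.33, 6.56 against 4.46 and 10.4 against 4.93. For the middle pair the interval of the read ratio, −0.11 to 1.59, included 0. These summit positions were marked in both conditions, and dox cells had 7 further summits in the interval, the outermost 2411 bp before the start.

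Peaks covered 6711 bp of the Six2 window in dox and 804 bp in control cells, an 8.35-fold ratio, and 99.2% of the 15536 genes with peaks in both lists had a smaller one. For the whole lists the ratio was 1.10. The other regions of the window were a dox-only peak of 633 bp in the gene (4.06) and one of 338 bp before the start (2.24), whose −log10 q of 1.37 was just above the limit of the list. Six3, the neighbouring gene of the same family, known for eye and forebrain (85613608 to 85626191), held no region in either list. The annotated noncoding gene CJ186046Rik (85688494 to 85727021) lies beyond the Six2 start without overlapping Six2, and the right part of the region lies over it.

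Eya1 (chromosome 1, 14168953 to 14311035) kept its strongest region and differed inside the gene. At the right annotated end (14308064 to 14311042) fold enrichment was 25.0 in dox and 27.8 in control cells (log2 ratio −0.02), and the read ratio was −0.11 (−0.49 to 0.28). Summits 4 bp apart there had 133 reads in dox and 106 in control cells, a scaled log2 ratio of −0.03 (−0.41 to 0.35). The RefSeq table used here gives outer gene coordinates without exons, so regions inside the gene are not divided into exonic and intronic.

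Both lower regions of the 4 windows were neighbours inside Eya1, 36.9 and 35.7 kb from the right end. The region at 14272957 to 14274154 had 4.23 in dox and 14.4 in control cells (log2 ratio −1.63), from 19 and 54 reads (−1.87, −2.70 to −1.09). The adjoining region at 14274219 to 14275295 had 4.32 and 9.72 (−1.04), from 19 and 51 reads (−1.78, −2.63 to −0.999). At its matched summits, 40 bp apart, the values were 3.15 in dox and 9.72 in control cells (−1.49). Neither read interval reached the series median of −0.27. In control cells these were the strongest summits of the gene away from its right end.

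The body of Eya1 had its strongest dox-only regions far to the left of that pair. A region of 2095 bp (14180339 to 14182433), 128.6 kb from the right end, had a dox fold enrichment of 8.46, a −log10 q of 25.9 and 42 reads (30.3 to 56.8), the strongest dox-only region of the 40. A second of 1823 bp (14207400 to 14209222) had 6.08 and 37 reads (26.1 to 51.0). The next by strength lay outside the gene (14138869 to 14139541, 4.97), within the noncoding gene Gm39596. The other 5 dox-only regions had 2.56 to 3.46. The 2 control-only regions, 6.3 and 5.8 kb from the right end, had 2.54 and 3.92. Peaks covered 11808 bp of the window in dox and 6159 bp in control cells (1.92-fold, larger than at 87.7% of genes). Weighted by interval length, the highest fold enrichments of the intervals had a mean of 10.3 in dox and 17.2 in control cells. Each mean includes the intervals listed in that condition alone.

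**Figure D2:**
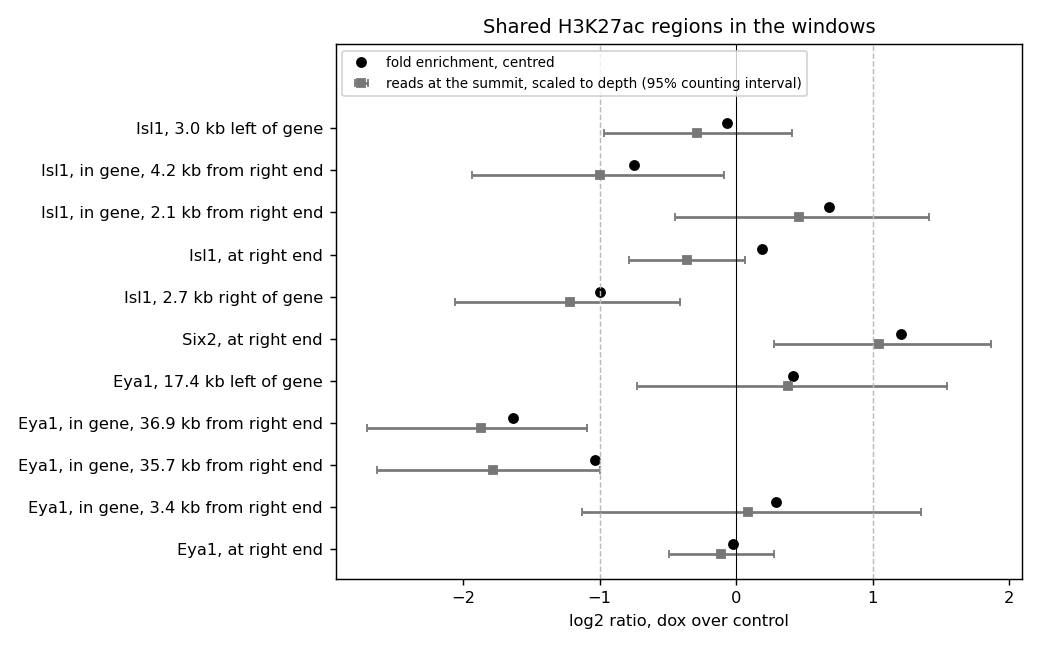
Log2 ratios of dox over control for the 11 shared regions of Isl1, Six2 and Eya1 (rows, with their place relative to the annotated gene ends). Circles are centred fold enrichment ratios, squares the depth-scaled ratios of reads with 95% counting intervals, and dashed lines the size of 1; the Six2 region lies beyond it on the right (1.21) and the pair inside Eya1 on the left (−1.63 and −1.04).

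Isl1 (chromosome 13, 116298270 to 116309688) had nearly equal fold enrichment at its start in both conditions. The region over the start (116307672 to 116312295) had 21.0 in dox and 20.2 in control cells, a log2 ratio of 0.19. Its reads were 96 in each, over a local background of 3.63 in dox and 3.81 in control cells, and scaled by depth their log2 ratio was −0.36 (−0.78 to 0.06). Main summits lay 330 bp before the start in dox and 392 bp before it in control cells. Each list had 9 summits in the region, and those on either side of the main one had 10.0 and 9.72 in dox and 12.7 and 9.50 in control cells.

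Peaks covered less of the Isl1 window in dox than in control cells, with 8758 bp in dox and 13877 bp in control cells (0.63-fold, with a smaller ratio at 11.2% of genes), and the lists held 21 and 32 summits. The region before the start (116312404 to 116314340) had 4.65 in dox and 10.2 in control cells. Its log2 ratio of −0.999 was just short of the size of 1, and the read ratio was −1.21 (−2.06 to −0.41). It passed that size without centring (−1.13) and with the width-weighted mean of its intervals' highest fold enrichments (−1.21). In either case there were 3 lower regions in place of 2. Both matched summits farther from the start were weaker in dox cells, 3.15 against 8.35 (−1.28) and 4.65 against 10.2, while the one nearest the start had 3.35 against 3.85 (−0.07). One region in the gene, 4170 bp after the start, had 4.11 in dox and 7.57 in control cells (−0.75), and its neighbour nearer the start 6.70 and 4.57 (0.68).

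The 7 control-only regions of Isl1 had fold enrichments of 2.61 to 5.22. The strongest, of 1082 bp (116297259 to 116298340), lay over the far end of the gene with 19 reads (11.4 to 29.7), followed by 2 in the gene body with 4.96 and 4.16. Beyond the far end of the gene, by 3033 bp, a shared region (116293181 to 116295237) had 8.64 in dox and 9.92 in control cells (−0.07), with 39 and 37 reads. The start and this distal region thus had small ratios, and all but 1 of the control-only regions lay between them. Nothing was listed in the right part of the window beyond 116314340.

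Tbx1 (chromosome 16, 18580979 to 18590671) had no shared region, and its highest fold enrichment was the lowest of the 4 genes in dox cells. Its 8 dox-only regions had 2.81 to 4.32, from 12 to 19 reads, and widths of 200 to 687 bp. Of these, 3 lay in the gene (3.40 nearest the start, 3.02 and 2.81), 1 just past its far end (3.74) and 2 upstream of the start, at 10.5 and 11.2 kb (3.89 and 4.32). The 1 peak within 1000 bp of an annotated end of Tbx1 was this one past the far end, 10222 bp from the outer start. The other 2 dox-only regions (3.02 and 3.46) and both control-only regions (6.27 and 4.44) lay in the neighbouring gene Gnb1l (18497386 to 18566680). Within Tbx1 itself and upstream of it, no control peak was listed. Covered length was 3486 bp in dox and 769 bp in control cells, and 97.3% of genes had a smaller ratio than this 4.53-fold one. The weakest dox reads, 12, were next to the lowest count listed on the uniform background, so absence from the control list at such levels is not shown to be a difference. With a −log10 q of at least 10, no dox region of the window was left, and 1 control region in Gnb1l was.

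**Figure D3:**
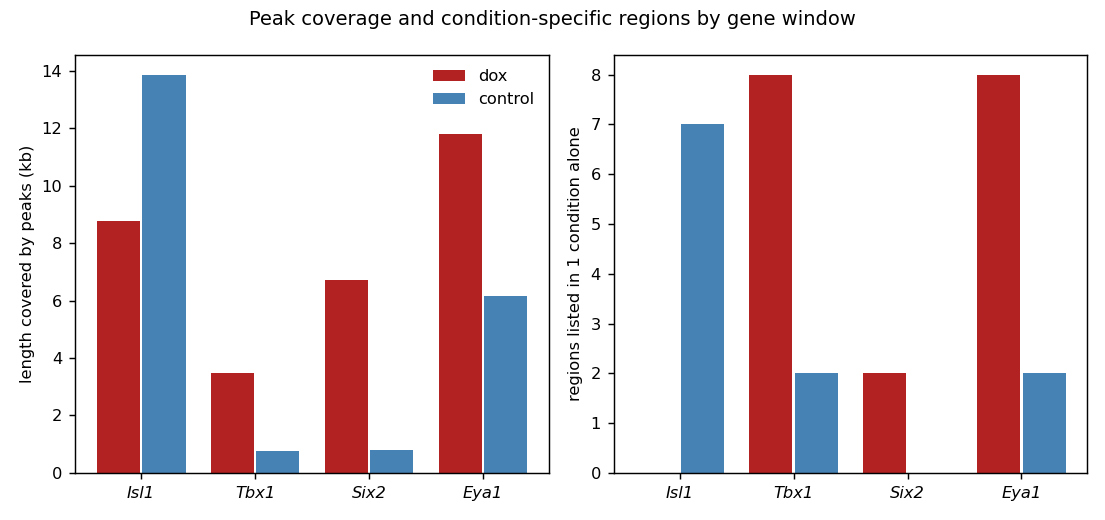
Length of each window covered by H3K27ac peaks in kb (left) and number of regions listed in 1 condition alone (right), for dox and control cells; bars are the values of the single pooled lists and have no error. Dox exceeds control in covered length at Tbx1, Six2 and Eya1 (3486, 6711 and 11808 bp against 769, 804 and 6159 bp) and not at Isl1 (8758 against 13877 bp).

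No GLI1 site lay in any of the 4 windows, while 13.3% of protein-coding genes had a site within 50000 bp. Only replicated sites with a Gli motif are listed, so other GLI1 binding in the windows was not tested. The nearest site to Isl1 was 107.05 kb to the right of the gene (116416738 to 116416838), upstream of its start, with a −log10 q of 34.1. It lay in a dox-only region of fold enrichment 5.40, and Isl1 was the nearest protein-coding gene. Tbx1 had its nearest sites at 108.2 and 132.6 kb, both within Txnrd2, a thioredoxin reductase gene. Their regions had 22.8 in dox and 23.2 in control cells (log2 ratio 0.11) and 24.8 and 4.18 (2.70).

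The sites nearest to Six2, upstream of its start, included a pair among the strongest of the list. At 215.8 kb (85904009 to 85904109) stood a site with a −log10 q of 430, stronger than 99.7% of all sites, in a dox-only region with a fold enrichment of 20.1. At 225.0 kb a second had 284 (stronger than 98.8%), in a shared region with 23.0 in dox and 6.79 in control cells (log2 ratio 2.24). Another at 242.9 kb, with 24.1, lay in no listed region. The nearest protein-coding gene to these 3 was Srbd1, from 80556 bp down to 53451 bp away, and the lists hold nothing that ties a site to a gene. Near Eya1 the closest site, 177.7 kb to the right, was among the weakest (10.8, stronger than 6.37%) and lay in no listed region. Over all sites, 75.4% lay in a region of the dox list. GLI1 signal of uninduced cells was not analysed here.

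Other genes of the second heart field network, a list of 41, were read at both annotated ends (1000 bp around each). Both lists had a region there for 24 of them and neither list for 11, while 3 were marked in dox only and 3 in control only. Of 20372 protein-coding genes, 47.9% were marked in both, 46.9% in neither, 2.96% in dox only and 2.21% in control only. Among the 24, 1 gene was higher and 3 were lower; of 9758 genes with regions in both lists, 3.77% were higher and 2.05% lower. The list's median was −0.23, and that of all genes 0.14. The higher gene was Foxc2, a forkhead factor of outflow tract progenitors (17.5 in dox, 3.57 in control, 2.42). Lower were Foxh1, a partner of SMAD factors (6.89 and 19.0, −1.33), Tbx3, a T-box repressor (4.72 and 11.6, −1.17), and Hand2, a bHLH factor (10.8 and 24.5, −1.05).

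Regions in dox alone were those of Foxf1 (40.2), Osr1 and Tbx18 (3.67 each), and in control alone those of Fgf8 (4.46), Wnt11 (4.32) and Eya4 (3.92). Relatives and cofactors of Six2 and Eya1, named here after their values had been seen, had ratios under 1 in size: Six4 had −0.42 and Six5 −0.00, Eya3 had −0.07, and Dach1, a cofactor of these proteins, −0.81. Of the 41 windows, 14 held a GLI1 site (34.1%), against 13.3% over all protein-coding genes. The list was chosen with earlier results of these data known, so these shares are not an independent comparison. Some windows also overlap, among them those of Foxf1 and Foxc2, with 4 sites in each. By the highest dox and control values and the numbers of dox-only and control-only regions in the window, the genes of the list most like Isl1 were Ripply3 (distance 0.88) and Hoxb1 (0.91), and most like Eya1 Hes1 (0.75) and Eya3 (0.90). Nearest to Six2 was Sfrp5 (1.02), and nearest to Tbx1 were Dach1 (1.03) and Osr1 (1.09). This likeness rests on 2 pooled lists.

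**Figure D4:**
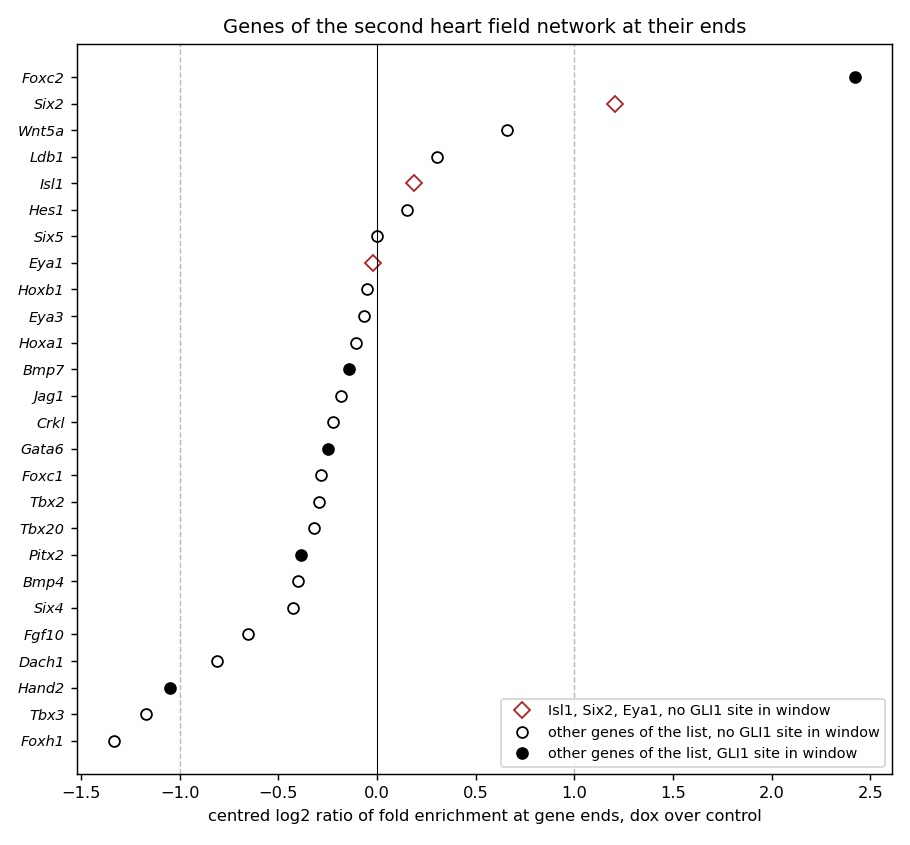
Centred log2 ratio of dox over control fold enrichment at gene ends for 23 of the 24 list genes with a region in both lists (circles) and for Isl1, Six2 and Eya1 (diamonds); filled symbols have a GLI1 site within 50000 bp of the gene and dashed lines mark the size of 1. Six2 at 1.21 stands next to Foxc2 at 2.42, while Isl1 at 0.19 and Eya1 at −0.02 stand near 0.

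Markers were read at the annotated ends alone (1000 bp around each), and those of the labelled cell type were marked there in part. Of 11 cardiac progenitor markers, 7 were marked at a gene end in dox and 6 in control cells (median fold enrichment 10.8 and 18.7). The dox median includes Kdr (2.82), which had no control region at its ends, so the medians cover unlike sets of genes. The ends of Nkx2-5, Gata4, Mef2c and Tbx5 were unmarked in both lists, but their wider windows (50000 bp on either side) differed. The highest values there were 31.7 in dox and 27.8 in control cells at Gata4, and 16.4 and 20.8 at Mef2c. At Nkx2-5 they were 3.69 and 2.91, and the Tbx5 window held no region. Which gene such regions belong to was not tested. Beside Hand2, Tnnt2, a cardiac troponin gene, was lower (3.74 in dox, 10.4 in control, −1.35), and Pdgfra, a receptor of mesoderm progenitors, was higher (5.14 and 2.62, 1.11). Of 4 neural markers 2 had a region in each list (Nes and Sox2, with up to 31.8 in dox and 31.9 in control). The endoderm and floor plate gene Foxa2 had one in dox alone (34.0), the other 2 endoderm markers none. Of 3 endothelial markers 3 had one in dox cells and 1 in control cells. Pecam1 was in both lists (11.2 in dox, 11.7 in control, 0.07), and Cdh5 and Tal1 were in dox alone with lower values (3.13 and 4.75). Of 2 pluripotency markers, Nanog had a region in both lists. The part of other cell types in the values of the 4 genes was not tested.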

How the data were processed

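H3K27ac and GLI1 were profiled by chromatin immunoprecipitation and sequencing. Build mm10 and the tools MACS2 2.1.1, SAMtools 1.5 and Bowtie2 2.3.2 are named, without roles, in the submitters' processing notes. Per the deposited file names, replicates were combined and blacklisted regions removed. The authors' H3K27ac lists hold a fold enrichment ratio and a −log10 p and −log10 q per summit (lowest −log10 q 1.33 in dox, 1.31 in control); the deposited GLI1 list holds 101 bp windows with a −log10 q, kept where replicated and with a Gli motif. The lists gave 76437 dox intervals (66.0 Mb) and 67463 control intervals (59.9 Mb).

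Summits of an interval were collapsed and intervals of the lists sharing at least 1 bp merged into regions. Whole-number reads were recovered from fold enrichment and −log10 p (tolerance 0.01); uniform backgrounds were 3.63 reads in dox and 2.83 in control, and their ratio was taken as depth, since reads per library are unknown. Read ratios have exact binomial intervals, counts exact Poisson intervals. Running numbers skip in 694 stretches of the lists; none touched the 4 windows, and genes elsewhere that met one were left out of the ranks. Genes and promoters came from RefSeq (GRCm38.p6); 3 of the 4 genes matched a promoter entry. 1 gene of the list is not reported by name here. Likeness is the Euclidean distance of log2(value + 1). List genes were named where past the size of 1 or listed in 1 condition alone; in each window the strongest, higher, lower and condition-specific regions were named. Summits at most 100 bp apart and mutually nearest were matched, a step added after the values had been seen. Members and lists were chosen with earlier results of these data known. Scripts were tested on simulated data (Python 3.11.15, scipy 1.17.1).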

Additional observations from a re-analysis of the deposited data

How the results depend on the processing

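Over the alternatives set out at the start and 1 added after seeing the data (the dox list scaled to the control depth), 57 of 62 recomputed counts and medians stayed within 1.5 times or within the counting interval. The exceptions came with a −log10 q of at least 10, which left 4 dox-only, 3 shared and 5 control-only regions in the 4 windows, and 0 higher and 0 lower ones; Six2 and the pair inside Eya1 were then listed in 1 condition alone. With the dox list scaled to the control depth the counts were 17, 11 and 11. The count of 2 lower regions became 3 under that scaling, without centring, with width-weighted mean fold enrichment and with the ratio of reads. The added region was each time the one before the Isl1 start. Without centring and with the ratio of reads, no series median was subtracted (−0.13 and −0.27). The 100 kb window gave 25, 14 and 12. Of 27 recomputed ratios of single regions 26 stayed within their counting interval, and the exception was the read ratio of −0.36 at the Isl1 start. With a −log10 q of at least 10 the Six2 region and the Eya1 pair had no ratio. Those cases are not among the 27, and the Six2 median of that setting is not among the 62. The 62 also include GLI1 site counts, which were 0 in every window size. The width-weighted mean takes the highest fold enrichment of each interval. At a shared region with 1 interval in each list it could therefore differ only by the centring. Such regions are among the 27 and enter the medians among the 62. Sites widened by 500 bp were not run, as the windows held no site. No paired analysis was possible because the deposited lists pool the replicates, and leaving out a replicate was not possible for the same reason. Depth limits the weak regions most: a summit of 12 reads has a counting interval of 6.20 to 21.0.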
